A study of Homo sapiens with 4 samples.

Results

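RNA splicing regulators are proteins that bind pre-mRNA and set which exons are kept. The 42 regulators described here are RBM47 together with the ESRP, MBNL, CELF, NOVA, ELAVL, PTBP, KHDRBS and SRRM families, SR proteins and a few others, taken by gene symbol from the annotation of the array. Of the 42 symbols, 40 had a probe set annotated to that gene alone, among 19775 genes with a value, and 159 of the 54675 probe sets read these 40. ESRP2 and SRSF2 were annotated only together with a microRNA gene and are not analysed here. A probe set is a group of short probes that reads a stretch shared by 1 or more transcripts. It reports the amount of RNA that holds that stretch and does not resolve how the RNA is spliced.

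The cells were NCI-H209 and Lu139, established human small cell lung cancer lines. All cells were electroporated, either with siNTC, the control siRNA, or with siTTF-1, which targets TTF-1. TTF-1 is the homeodomain factor of lung and thyroid that NKX2-1 encodes. Every line and siRNA was read on 1 array, 4 arrays in all, so a difference within a line has no replicate and no test, and the only replication of the siRNA effect is between the 2 lines. Whether the cultures were independent is not given in the sources used here. The p-values rest on how far the siRNA difference disagreed between the 2 lines, a spread drawn toward that of all genes. Part of that disagreement may be technical, and the p-values do not measure spread between replicate cultures.

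Cells of different type carry different sets of splicing regulators. ESRP1, ESRP2 and RBM47 are enriched in epithelia, where they hold exons of genes such as FGFR2 and CD44 in their epithelial form. Neurons use CELF3 to CELF6, the NOVA proteins, ELAVL2 to ELAVL4, PTBP2, SRRM4 and KHDRBS2 and KHDRBS3, of which SRRM4 drives the inclusion of neuronal microexons. MBNL, CELF1, CELF2, RBFOX2, QKI and RBM24 switch exons during differentiation, and SR proteins, PTBP1 and their partners act in most cells. Small cell lung cancer is an epithelial tumour with neuroendocrine features, so genes of the epithelial and the neuronal class can be read in the same RNA.

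The promoters below are those of the 3 regulators more than 2-fold lower after siTTF-1 in a line (RBM47, MBNL3 and NSRP1) and of RBM24, which was higher. Each run is the 250 bases before the most upstream start listed for the gene, 5′ to 3′ on the strand of the gene, from RefSeq (GRCh38.p14). Capitals mark CAAG or its reverse complement CTTG, the core of sites that TTF-1 binds.
RBM47, chr4:40630595-40630844, minus strand: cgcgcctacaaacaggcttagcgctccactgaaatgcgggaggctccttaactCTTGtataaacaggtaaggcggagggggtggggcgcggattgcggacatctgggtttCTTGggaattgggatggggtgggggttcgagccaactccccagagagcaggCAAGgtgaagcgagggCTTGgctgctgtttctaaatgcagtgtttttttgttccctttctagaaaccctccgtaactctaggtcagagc
MBNL3, chrX:132490036-132490285, minus strand: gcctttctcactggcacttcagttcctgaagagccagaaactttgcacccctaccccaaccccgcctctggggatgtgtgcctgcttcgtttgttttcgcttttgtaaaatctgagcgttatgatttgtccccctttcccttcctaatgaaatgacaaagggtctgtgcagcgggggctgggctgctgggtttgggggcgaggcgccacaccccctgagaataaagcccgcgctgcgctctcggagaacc
NSRP1, chr17:30116566-30116815, plus strand: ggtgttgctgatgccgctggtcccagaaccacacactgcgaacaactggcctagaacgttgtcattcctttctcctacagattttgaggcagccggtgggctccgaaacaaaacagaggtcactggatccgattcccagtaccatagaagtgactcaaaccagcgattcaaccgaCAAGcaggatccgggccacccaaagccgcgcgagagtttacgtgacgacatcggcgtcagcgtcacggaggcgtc
RBM24, chr6:17281814-17282063, plus strand: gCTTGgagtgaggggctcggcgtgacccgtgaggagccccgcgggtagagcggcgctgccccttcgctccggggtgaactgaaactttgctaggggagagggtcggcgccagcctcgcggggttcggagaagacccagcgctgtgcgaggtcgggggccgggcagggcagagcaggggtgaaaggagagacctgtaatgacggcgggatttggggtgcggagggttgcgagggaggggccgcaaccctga
The RBM47 run held 4 such cores, MBNL3 0, NSRP1 1 and RBM24 1. Of 35116 promoter windows of the same length, 80.9% held at least 1, with a median of 2. The longer forms CACTTG and CTCAAG, searched on both strands, were in none of these 4 runs. At least 1 of them was in 18.3% of all windows and in 13 of the 76 windows (17.1%) listed for 34 of the 42 regulators. CACTTG and CTCAAG each contain the core or its complement, so these searches overlap. A match is a description of the letters in this window and not a binding site. RBM47 and MBNL3 have 4 listed starts each, whose windows held from 1 to 4 cores in RBM47 and from 0 to 5 in MBNL3.

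The depth of the knockdown and the identity of the cells bear on every value below. On the brighter NKX2-1 probe set the intensity was 595.7 on the control array of NCI-H209 and 242.7 after siTTF-1 (40.7% of control), and 779.9 and 460.9 in Lu139 (59.1%). The dimmer one gave the opposite order of depth, with 195.9 and 126.6 in NCI-H209 (log2 fold change -0.56) and 400.4 and 221.4 in Lu139 (-0.80). Of 10 neuroendocrine markers with a value 9 were above the expression limit in both lines, as were all 8 epithelial markers, but STMN2 was not. Of 8 immune, fibroblast and endothelial markers with a value, 6 were above the limit in both lines (CD3E, COL1A1, DCN, PECAM1, VWF and VIM), and PTPRC and COL3A1 were below it. Summed over these 8, intensity lay between 696.6 and 862.4 on the 4 arrays, and their part in the results was not tested. They were listed as genes that a small cell line lacks, so a value above the limit need not show expression. PECAM1 lay between 94.4 and 145.6, which overlaps SRRM4 (120.1 to 161.3) and NOVA2 (112.1 to 129.2). The median intensity of an array ran from 48.4 to 57.7, and the number of arrays limits the precision. Fold changes are siTTF-1 over siNTC of log2(intensity + 18.7), a scale that shrinks the differences of dim genes. The expression limit is an intensity of 37.0, which 39 of the 40 regulators passed in NCI-H209 and 37 in Lu139. KHDRBS2 was below it in both lines, and RBM47 and RBM24 in Lu139.

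After siTTF-1, NCI-H209 cells had far less RBM47, and less NSRP1, MBNL3, ELAVL2 and PTBP2 RNA, each past 1.5-fold, with more RBM24. In Lu139 MBNL3 was lower past 1.5-fold. In RNA of whole cultures, fewer cells that make a transcript and less of it per cell cannot be told apart. Of the 37 regulators above the limit in both lines, 27 (73.0%) were within 0.3 of 0 on the log2 scale in both, as were 76.0% of all genes. In NCI-H209 5 of 39 regulators (12.8%) were at least 1.5-fold lower, against 3.52% of all 14632 genes above the limit, and 1 was at least 1.5-fold higher, against 1.09%. In Lu139 1 of 37 (2.7%) was at least 1.5-fold lower, against 0.936% of 13996 genes, and 0 were higher, against 0.193%. At 2-fold the counts were 3 lower and 0 higher in NCI-H209 (0.649% and 0.157% of all genes) and 0 in either direction in Lu139 (0.0429% and 0.00714%). The median log2 fold change of the regulators was -0.05 in NCI-H209 and 0.00 in Lu139, beside 0.01 and 0.03 for all genes.

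**Figure D1:**
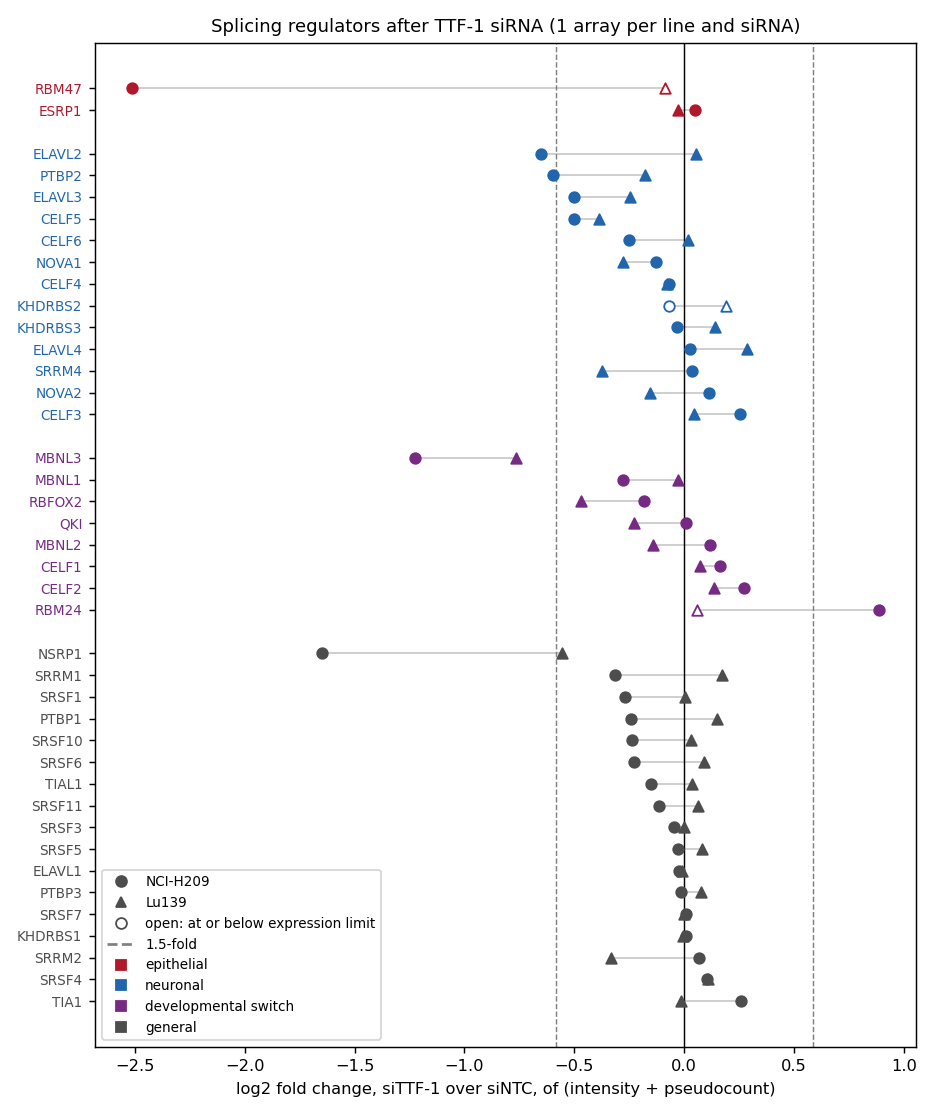
Log2 fold change of siTTF-1 over siNTC of each of the 40 regulators with a value (x axis) in NCI-H209 (circles) and Lu139 (triangles), grouped and coloured by class, with open symbols at or below the expression limit and dashed lines at 1.5-fold. RBM47 lies at -2.51 in NCI-H209, NSRP1 and MBNL3 lie to the left in both lines, and most general regulators cluster around 0.

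Across both lines, limma with a term for the line passed 0 of the 39 tested regulators in either direction at the adjusted p threshold of 0.05, as for all 14547 genes (0% lower and 0% higher). At an unadjusted p under 0.05 it gave 7 lower regulators (17.9%), against 9.25% of all genes, and 1 higher (2.56%), against 7.23%. The 7 were RBM47, NSRP1, MBNL3, CELF5, ELAVL3, PTBP2 and RBFOX2, and the 1 was RBM24. Of these, RBM47 and RBM24 were below the expression limit in Lu139 and entered this test only through NCI-H209. Their means over the lines thus include a Lu139 value below the limit. MBNL3 had the smallest adjusted p of the regulators (limma adjusted p = 0.0727), the 1 regulator under 0.1, a level that 0.268% of all genes passed downward. The limma adjusted p of MBNL3 ran from 0.0246 to 1 over 11 alternative settings, and was highest with no term for the line. It was under 0.05 in 3 of them, with quantile normalization over the 4 arrays (adjusted p = 0.0246), with quantile normalization within each line (0.0367) and with the expression limit at the 60th percentile (0.0408).

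Among the epithelial regulators, RBM47 was far lower after siTTF-1 in NCI-H209 and ESRP1 was near its control level in both lines. RBM47, an RNA-binding protein that controls splicing and stability of epithelial transcripts, had an intensity of 1426 on the control array of NCI-H209 and 234.7 after siTTF-1, or 16.5% of control. In Lu139 it was 15.9 and 13.9, both below the expression limit. The log2 fold change of RBM47 in NCI-H209 was -2.51, the lowest of all 14632 genes, and -0.09 in Lu139. The mean over the lines was -1.30 (SD 1.72, n = 2 lines), with a limma 95% confidence interval of -2.42 to -0.18 and a limma adjusted p of 0.255.

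All 5 probe sets of RBM47 were lower in NCI-H209, by unequal amounts. The brightest had -2.51, and the next went from 766.2 to 226.4 (-1.68). The other 3 were dim, with control intensities between 36.6 and 102, and had -0.48, -0.67 and -0.45, the last below the limit. The mean of all 5 was -1.16 in NCI-H209, so the size of the RBM47 difference, though not its direction, turns on the probe set read. In Lu139 the 5 probe sets lay between 13.9 and 42.3, and 1 was above the limit, with 0.13.

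ESRP1, the epithelial splicing regulator that acts on FGFR2 and CD44, was at 5103 and 5273 in NCI-H209 and at 1210 and 1187 in Lu139. Its log2 fold changes were 0.05 and -0.03, and its mean was 0.01 (SD 0.05, n = 2 lines), with a limma 95% confidence interval of -0.17 to 0.19. The second probe set of ESRP1 had 0.03 and -0.06. ESRP1 was thus at 103.3% and 98.1% of its control in the 2 lines, while RBM47 in NCI-H209 was at 16.5% of its control.

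**Figure D2:**
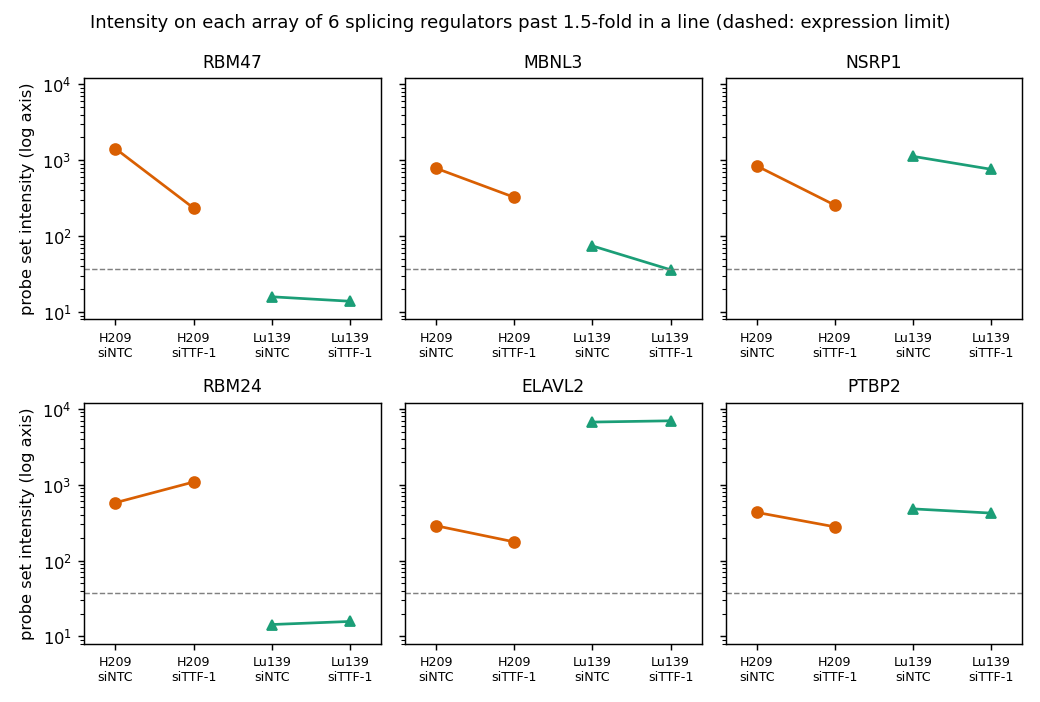
Probe set intensity (log axis) on each of the 4 arrays for the 6 regulators past 1.5-fold in at least 1 line, with NCI-H209 as circles, Lu139 as triangles and the expression limit of 37.0 dashed. RBM47 goes from 1426 to 234.7 in NCI-H209 and stays below the limit in Lu139, as RBM24 does at 14.3 and 15.7, while NSRP1 and MBNL3 are lower after siTTF-1 in both lines.

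Of the regulators that switch exons during development, MBNL3 was lower in both lines. MBNL3, a muscleblind protein, was at 784.4 and 325.1 in NCI-H209 (41.4% of control) and at 74.4 and 36.1 in Lu139 (48.5%). The siTTF-1 value in Lu139 is just under the expression limit. The log2 fold changes were -1.22 and -0.77, a mean of -0.99 (SD 0.32, n = 2 lines) with a limma 95% confidence interval of -1.31 to -0.68. Its dimmest probe set also was lower, at -0.72 and -0.36, the latter below the limit. The remaining one read 115.5 and 116.3 in NCI-H209 (0.01) and 10.6 on both arrays of Lu139 (0.00). The mean of the 3 was -0.65 in NCI-H209 and -0.37 in Lu139, which takes MBNL3 out of the 1.5-fold count in Lu139.

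The paralogs of MBNL3 had smaller values. MBNL1, the broadly expressed muscleblind protein, had -0.28 and -0.03, and in NCI-H209 the 4 MBNL1 probe sets above the limit were all lower. MBNL2, the muscleblind protein of the brain, was at 1307 and 1420 in NCI-H209 and at 91.1 and 80.7 in Lu139, with log2 fold changes of 0.12 and -0.14. All 5 MBNL2 probe sets were above the limit in NCI-H209 and all 5 were higher there. Whether MBNL3 differs from its paralogs in response was not tested.

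RBM24, a regulator of muscle exons and of mRNA stability, was the regulator with the highest fold change. It was read by 1 probe set, at 578.8 and 1084 in NCI-H209 (log2 fold change 0.88) and at 14.3 and 15.7 in Lu139, below the limit. RBM24 and RBM47 were thus both read in NCI-H209 and below the limit in Lu139, with differences of opposite sign in NCI-H209. The mean of RBM24 over the lines was 0.47 (SD 0.58, n = 2 lines; limma adjusted p = 0.279).

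RBFOX2, which binds UGCAUG beside alternative exons, had a log2 fold change of -0.18 in NCI-H209, beside -0.47 in Lu139. Its intensity was 1714 and 1234 in Lu139 and 1385 and 1219 in NCI-H209. In Lu139 3 of its 4 probe sets were lower, at -0.47, -0.34 and -0.49, and the dimmest had 0.01. QKI, a STAR protein of glia and muscle, had 0.01 in NCI-H209 and -0.23 in Lu139. CELF1 and CELF2, which oppose the MBNL proteins at many exons, were higher in both lines (0.16 and 0.07 for CELF1, 0.27 and 0.14 for CELF2), and limma passed neither (adjusted p = 0.402 and 0.333). CELF1 was higher on all 7 of its probe sets in NCI-H209 and on 6 of 7 in Lu139.

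In the neuronal class, 8 of 12 regulators above the limit were below 0 in NCI-H209 and 7 of 12 in Lu139, beside 47.3% and 40.7% of all genes. Their median log2 fold changes were -0.10 and -0.12. In both lines 5 were lower (41.7%, against 27.5% of all 13306 genes above the limit in both) and 2 higher (16.7%, against 37.7%). The 5 lower ones were CELF4, CELF5, NOVA1, ELAVL3 and PTBP2. NOVA1 is in this count on its brightest probe set. Its other probe set above the limit had 0.22 in Lu139, and the mean of all 3 was -0.03 there.

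PTBP2, the neuronal paralog of PTBP1, was at 430.4 and 277.9 in NCI-H209 and at 479.4 and 421.8 in Lu139. Its log2 fold changes were -0.60 and -0.18 (mean -0.39, SD 0.30, n = 2 lines; limma adjusted p = 0.227). Its second probe set had -0.47 and -0.50, so both probe sets were lower in both lines and they differed on the size in Lu139. PTBP1, which PTBP2 replaces as neurons mature, had -0.24 and 0.15 on a probe set whose probes can bind other transcripts. Its 3 other probe sets were dim, at most at 77.9, and between 0.02 and 0.19. PTBP3, the paralog of blood cells, had -0.01 and 0.08 on its brightest probe set. Its 4 other probe sets were higher in NCI-H209, from 0.29 to 0.40, and lay between -0.18 and 0.01 in Lu139. The mean of all 5 was 0.28 in NCI-H209.

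The ELAVL proteins stabilise neuronal mRNAs and act on alternative exons. ELAVL3 was at 1213 and 850.2 in NCI-H209 and at 1635 and 1376 in Lu139, with log2 fold changes of -0.50 and -0.25. All 3 of its probe sets were lower in both lines, from -0.24 to -0.50 in NCI-H209 and from -0.14 to -0.25 in Lu139. ELAVL2 was at 287.1 and 176.0 in NCI-H209 and at 6685 and 6945 in Lu139, with -0.65 and 0.05. Both of its probe sets were lower in NCI-H209. ELAVL4 had 0.02 and 0.28, and the ubiquitous ELAVL1 (HuR) -0.03 and -0.01. The 3 neuronal paralogs thus had different signs and sizes.

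CELF5 was at 96.8 and 63.0 in NCI-H209 and at 235.6 and 175.9 in Lu139. Its log2 fold changes, -0.50 and -0.39, were close in the 2 lines (mean -0.44, SD 0.08, n = 2 lines; limma adjusted p = 0.143), and all 3 probe sets were lower in both, one of them by 0.02 and 0.05 on the log2 scale. With the mean of the 3 its value in NCI-H209 was -0.22. CELF3 had 0.25 and 0.05, CELF4 -0.07 and -0.08, and CELF6 -0.25 and 0.02.

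SRRM4, the activator of neuronal microexons, was at 131.0 and 134.5 in NCI-H209 and at 161.3 and 120.1 in Lu139. Its log2 fold change was 0.03 in NCI-H209 and -0.37 in Lu139. In Lu139 all 3 probe sets were lower, at -0.37, -0.21 and -0.56, while in NCI-H209 they lay between -0.10 and 0.07. The difference between the lines was not tested. NOVA1, a regulator of synaptic exons, had -0.13 and -0.28, and NOVA2 0.11 and -0.16, each on its brightest probe set. KHDRBS3 (SLM2) had -0.03 and 0.14, and KHDRBS2 (SLM1) was between 16.7 and 30.8 on the 4 arrays.

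**Figure D3:**
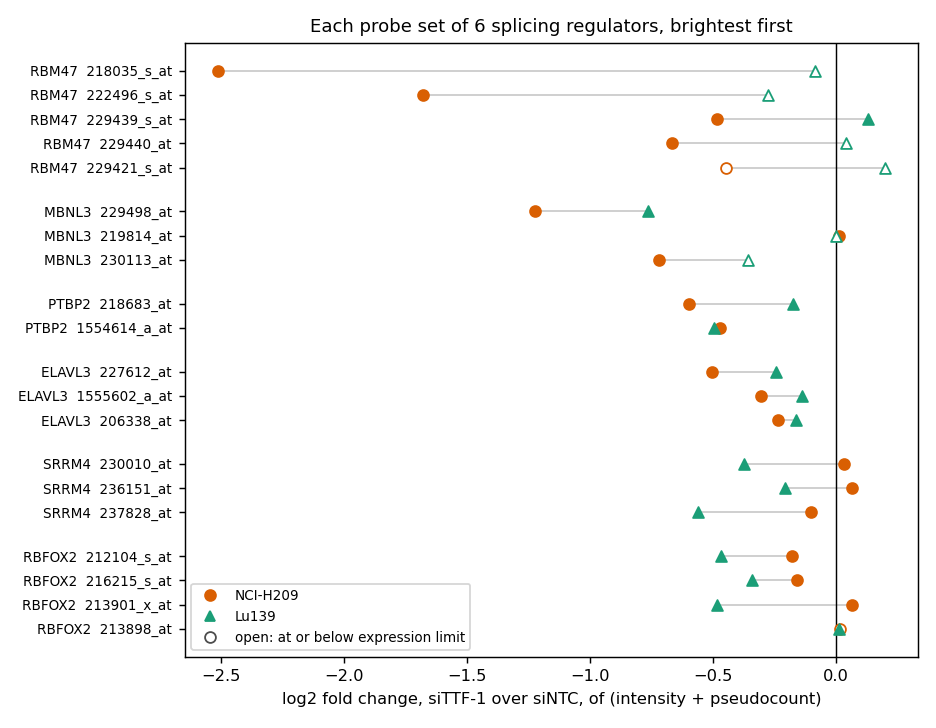
Log2 fold change of siTTF-1 over siNTC (x axis) on every probe set of RBM47, MBNL3, PTBP2, ELAVL3, SRRM4 and RBFOX2, brightest first, in NCI-H209 (circles) and Lu139 (triangles), open where at or below the expression limit. The 5 RBM47 circles all lie left of 0 but between -0.45 and -2.51, 1 MBNL3 probe set lies at 0, and the 3 SRRM4 triangles lie left of 0.

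Most general regulators were near their control level, as most genes were, apart from NSRP1. NSRP1, a nuclear speckle protein that acts on alternative exons, was at 842 and 255.8 in NCI-H209 (30.4% of control) and at 1127 and 761.2 in Lu139 (67.5%). The log2 fold changes were -1.65 and -0.56, the latter just short of 1.5-fold, with a mean of -1.10 (SD 0.77, n = 2 lines), a limma 95% confidence interval of -1.65 to -0.56 and a limma adjusted p of 0.134. NSRP1 has 1 probe set on this array, with no second to set beside it. Counted from the lowest, it was at rank 6 in NCI-H209 and at rank 154 in Lu139.

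Of the 17 general regulators with a value, 14 (82.4%) were within 0.3 of 0 on the log2 scale in both lines, against 76.0% of all genes. The others were NSRP1, SRRM1 and SRRM2. SRRM1, a splicing coactivator with RS domains, had -0.32 and 0.17, and SRRM2, a scaffold of nuclear speckles, 0.07 and -0.33. The other SRRM2 probe sets above the limit had -0.05 and -0.03 in Lu139, and the mean of its 4 was -0.13 there, within 0.3. The SR proteins, which bind exonic enhancers, ran from -0.27 to 0.10 in NCI-H209 and from 0.00 to 0.11 in Lu139 over the 8 measured. SRSF1 had -0.27 and 0.00, and in NCI-H209 the 7 SRSF1 probe sets above the limit were all lower. SRSF3 had -0.05 and 0.00, SRSF4 0.10 and 0.11, SRSF5 -0.03 and 0.08, SRSF6 -0.23 and 0.09, and SRSF7 0.01 and 0.00. SRSF10 had -0.24 and 0.03, and SRSF11 -0.11 and 0.06. SRSF4 at 0.11 in Lu139 is on its brightest probe set, while the mean of its 5 was -0.20.

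In this class 13 of 17 regulators (76.5%) had opposite signs in the 2 lines, against 31.9% of all genes above the limit in both. The differences are small, and the smallest were 0.00 to the second decimal. KHDRBS1 (Sam68), TIA1 and TIAL1 had 0.01 and -0.01, 0.26 and -0.01, and -0.15 and 0.04. Of all 37 regulators above the limit in both lines, 11 were lower in both, 5 higher in both and 21 of opposite sign.

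Of 113 other splicing genes listed from textbook knowledge (hnRNP genes, core spliceosome subunits, SR-like proteins with their kinases, and further regulators), 106 had a value and 101 were tested. In NCI-H209 2 of 101 above the limit were at least 1.5-fold lower (1.98%, against 3.52% of all genes) and 0 higher (against 1.09%). In Lu139 0 of 102 passed in either direction, against 0.936% of all genes lower and 0.193% higher. Limma called 0 of the 101 at an adjusted p under 0.05, as for all genes. At an unadjusted p under 0.05 it gave 13 lower (12.9%, against 9.25% of all genes) and 1 higher (0.99%, against 7.23%). The 2 past 1.5-fold were MSI2, a musashi protein that binds stem cell mRNAs, and CLK4, a kinase of SR proteins. MSI2 was at 1917 and 1033 in NCI-H209 (-0.88) and at 3204 and 2798 in Lu139 (-0.19), and the mean of its 10 probe sets was -0.27 in NCI-H209 and -0.30 in Lu139. CLK4 had -0.65 and -0.13, and -0.23 in NCI-H209 with the mean of its 4 probe sets. The 22 hnRNP genes were all within 0.3 of 0 in both lines, against 76.0% of all genes, and their medians were -0.04 and 0.00. The 36 core spliceosome genes had medians of -0.06 and 0.01, and the 18 SR-like genes and kinases -0.21 and -0.06.

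Most regulators differed in level between the lines. The line term of the limma fit called 29 of 39 regulators (74.4%) at an adjusted p under 0.05, close to the 70.5% of all tested genes, 15 of them lower in Lu139 (38.5%, against 51.7%) and 14 higher (35.9%, against 18.7%). At 2-fold as well, 8 were lower (20.5%, against 20.2%) and 3 higher (7.69%, against 5.4%). These shares depend on the scaling, because the deposited arrays of Lu139 are dimmer. All tested genes had a median log2 difference of -0.28 (Lu139 minus NCI-H209), which quantile normalization over the 4 arrays moved to 0.04, and with it 11 regulators were lower (28.2%, against 32.8% of all genes) and 22 higher (56.4%, against 36.7%). RBM47 and RBM24 passed the limit for this test only through NCI-H209, so their difference followed from that, and they are in the counts of lower regulators.

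Of the epithelial regulators, ESRP1 was lower in Lu139 and RBM47 was below the expression limit there. ESRP1 was 4.28-fold lower (log2 difference -2.10, limma 95% confidence interval -2.28 to -1.92, limma adjusted p = 1.03e-06), with both arrays of Lu139 below both of NCI-H209, and -1.65 after quantile normalization over the 4 arrays. Beside this, 7 of the 8 epithelial markers were lower in Lu139. Summed over the 8, intensity was 43030 and 47322 in NCI-H209 but 16855 and 17930 in Lu139. Their part in the ESRP1 difference was not tested. After siTTF-1 all 8 epithelial markers were above 0 in both lines, as were 37.7% of all genes. Their medians were 0.19 and 0.15, beside an SD over all genes above the limit of 0.27 and 0.19. Only CLDN4 in NCI-H209 (0.76) was past 1.5-fold, and limma called 0 of the 8 at an adjusted p under 0.05.

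Of 12 tested neuronal regulators, limma called 7 higher in Lu139 (58.3%, against 18.7% of all tested genes) and 1 lower (8.33%, against 51.7%). ELAVL2 was 28.0-fold higher (log2 difference 4.81, limma 95% confidence interval 4.43 to 5.19, limma adjusted p = 7.11e-07), with 2019 and 1965 in Lu139 against 64.6 and 45.9 in NCI-H209 on its second probe set. CELF3 was at 862.4 and 890.9 in Lu139 and at 192.4 and 232.9 in NCI-H209 (log2 difference 1.96, or 1.17 with the mean of both probe sets), and CELF5 had 1.20. ELAVL4 (0.68), ELAVL3 (0.55), PTBP2 (0.36) and CELF6 (0.28) were the other 4. KHDRBS3 was 2.05-fold lower (-1.03), but its second probe set had 0.05. NOVA1 (-0.17), NOVA2 (-0.04), CELF4 (-0.23) and SRRM4 (0.06) did not pass, although quantile normalization over the 4 arrays put NOVA1 (0.29), NOVA2 (0.28) and SRRM4 (0.41) past the threshold upward in limma and gave CELF4 0.23. With the mean of all probe sets NOVA2 had 0.17 and SRRM4 -0.28.

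The developmental class held large differences downward. MBNL2 was 13.2-fold lower in Lu139 (log2 difference -3.72, limma adjusted p = 5.09e-07), and all 5 of its probe sets were lower, 4 of them below the limit in Lu139. MBNL3 was 7.36-fold lower (-2.88, limma adjusted p = 2.42e-06), on all 3 probe sets, 2 of them below the limit in Lu139. With the mean of all probe sets the differences were smaller, at -2.00 for MBNL2 and -1.79 for MBNL3. RBM24 was below the limit in Lu139. MBNL1, by contrast, had -0.26 (limma adjusted p = 0.0683) and 0.20 after quantile normalization over the 4 arrays. QKI (0.70), CELF2 (0.34) and CELF1 (0.24) were higher in Lu139, while the mean of its 7 probe sets gave CELF1 0.05. RBFOX2 had 0.16 and did not pass, although all 4 of its probe sets were higher in Lu139. It passed limma with the mean of all 4 (0.46) and with quantile normalization over the 4 arrays (0.63). Of the 7 CELF2 probe sets 5 were higher and 2 lower in Lu139. The brightest of them in Lu139 had 2.23, at 157.8 and 208.7 there against 23.7 and 24.5 in NCI-H209, below the limit.

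Of the 17 general regulators tested, 2 were called past 2-fold, both lower in Lu139 (11.8%, against 20.2% of all tested genes). PTBP3 was 3.85-fold lower in Lu139 (-1.94, limma adjusted p = 1.57e-06), on all 5 probe sets, and ELAVL1 2.96-fold lower (-1.57) on its brightest probe set, while 2 of its 4 were higher and their mean was -0.39. TIAL1 (-0.97), SRSF4 (-0.84), SRSF3 (-0.54), SRSF5 (-0.51), PTBP1 (-0.40), SRSF7 (-0.37) and SRSF1 (-0.30) were lower by less than 2-fold. Of these, PTBP1, SRSF7 and SRSF1 changed sign with quantile normalization over the 4 arrays, at 0.015, 0.040 and 0.084, and SRSF5 had -0.067. With the mean of all probe sets SRSF4 and SRSF1 changed sign, at 0.11 and 0.18, and 4 of the 5 SRSF4 probe sets were higher in Lu139. On its brightest probe set without the cross-binding suffix SRSF7 had -1.03. NSRP1 (0.96), SRRM1 (0.53), SRSF6 (0.53) and SRSF10 (0.32) were higher, but SRSF6 (0.14) and SRSF10 (0.18) did not pass limma with the mean of all probe sets. SRRM2 had 0.21 and did not pass, although all 4 of its probe sets were higher in Lu139. It passed limma with the mean of all 4 (0.63) and with quantile normalization over the 4 arrays (0.67). The class thus held 9 lower (52.9%, against 51.7% of all tested genes) and 4 higher (23.5%, against 18.7%). The neuronal class held 1 lower (8.33%) and 7 higher (58.3%), and the difference between the classes was not tested. With quantile normalization over the 4 arrays PTBP1, SRSF1, SRSF5 and SRSF7 no longer passed as lower. KHDRBS1, SRRM2, SRSF11 and TIA1 then passed as higher, so the counts of the general class depend on the scaling.

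**Figure D4:**
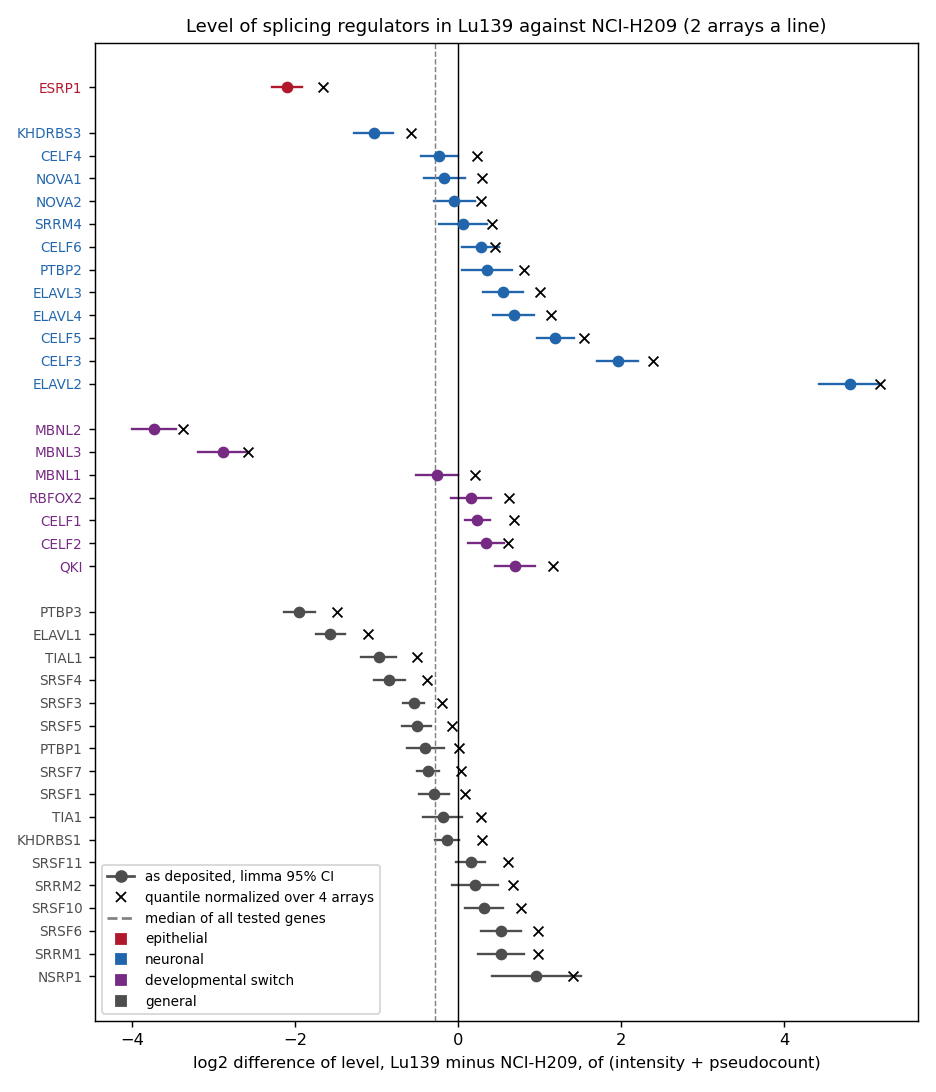
Log2 difference in level, Lu139 minus NCI-H209, of the 37 regulators above the limit in both lines (points) with limma 95% confidence intervals (bars) from 2 arrays a line, the value after quantile normalization over the 4 arrays (crosses) and the median of all tested genes at -0.28 (dashed). MBNL2, MBNL3 and ESRP1 lie far to the left and ELAVL2 far to the right under both scalings, while the crosses of 9 regulators, PTBP1, SRSF1 and SRSF7 among them, lie across 0 from their points.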

How the data were processed

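Total RNA of 4 samples was hybridised to Affymetrix arrays. The authors deposited 1 linear intensity per probe set and array, made with Affymetrix Expression Console per the submitters' processing notes. For its version, summarisation and normalization, nothing is given in the sources used here. Equal intensities on both arrays of a line (2416 probe sets in NCI-H209, 2206 in Lu139, 0 between lines) leave the scaling between lines uncertain.

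Of 54675 probe sets, 41091 were annotated to 1 symbol, 1801 to several, 11721 to none and 62 were controls. Symbols were updated by gene identifier (41037) through RefSeq, GRCh38.p14. Each gene was read by its brightest probe set (mean log2). The pseudocount was the 25th percentile of all values and the expression limit lay at the 40th percentile of probe set means on the log2 scale. limma 3.58.1 in R 4.3.3 fitted line and siRNA to all genes past the limit over 4 arrays (variance trend, 1 residual and 5.91 prior degrees of freedom, two-sided, Benjamini-Hochberg over 14547 genes), and was tested on simulated data. Figures used matplotlib 3.10.9.

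The regulators, lists and rules were chosen with earlier results of these data known. Named were all epithelial and neuronal regulators, those past 1.5-fold in a line, past an adjusted p of 0.1 or past 2-fold between lines, their paralogs, and other listed splicing genes past 1.5-fold. RBFOX2, QKI, the SR proteins, TIA1 and TIAL1 were named after their values were seen.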

Additional observations from a re-analysis of the deposited data

Results flagged for a closer look

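NOVA2, MBNL2, PTBP1 and SRRM1 had differences of opposite sign in the 2 lines, each past 0.1 on the log2 scale. With 1 array per siRNA in each line, the difference between the lines was not tested. The log2 fold change in NCI-H209 minus that in Lu139 was 0.27 for NOVA2 (0.11 and -0.16), 0.26 for MBNL2 (0.12 and -0.14), -0.39 for PTBP1 (-0.24 and 0.15) and -0.49 for SRRM1 (-0.32 and 0.17). Both SRRM1 probe sets had these signs, at -0.21 in NCI-H209 and 0.03 in Lu139 on the dimmer. For NOVA2 the signs are those of its brightest probe set. Its 2 other probe sets above the limit had 0.16 and 0.12 in Lu139, the first of them also 0.19 in NCI-H209, and the mean of all 4 in Lu139 was 0.06. The PTBP1 probe set without the _x_at suffix, below the expression limit, had 0.09 in NCI-H209.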

How the results depend on the processing

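Counts of regulators past a threshold were recomputed under 11 alternatives for the limma results and 9 for the values within a line. The count lower across lines went from 0 to 1 (MBNL3) with quantile normalization over the 4 arrays, with quantile normalization within each line and with the expression limit at the 60th percentile. The 1.5-fold count lower in NCI-H209 went from 5 to 3 with quantile normalization over the 4 arrays and to 3 with the mean of all probe sets, and in both RBM47, NSRP1 and MBNL3 remained. The count lower in Lu139 went from 1 to 0 with the mean of all probe sets and to 0 with the limit at the 60th percentile. The count higher in Lu139 than in NCI-H209 went from 14 to 22 with quantile normalization over the 4 arrays and to 9 with no siRNA term. The cause was not tested. Over all genes, limma called 49 lower and 17 higher, 40 and 13, and 32 and 6 under these 3 settings for MBNL3. Level differences that changed sign with quantile normalization over the 4 arrays were CELF4 (0.23), NOVA1 (0.29), NOVA2 (0.28), MBNL1 (0.20), PTBP1 (0.015), KHDRBS1 (0.29), SRSF1 (0.084), SRSF7 (0.040), TIA1 (0.28) and CLK4 (0.22). With the mean of all probe sets they were NOVA2 (0.17), SRRM4 (-0.28), SRSF1 (0.18), SRSF4 (0.11) and SRSF11 (-0.10), and with arrays scaled to the same median NOVA2 (0.12) and KHDRBS1 (0.028). The mean siRNA effect changed sign with the mean of all probe sets for ESRP1 (-0.0015), NOVA2 (0.069), KHDRBS3 (-0.050), MBNL2 (0.029), PTBP1 (0.067), KHDRBS1 (-0.0074) and SRSF4 (-0.10). It did so with quantile normalization over the 4 arrays for MBNL2 (0.0025), KHDRBS1 (-0.017) and SRSF7 (-0.021), and within each line for NOVA2 (0.0021), MBNL2 (0.013), KHDRBS1 (-0.016) and SRSF7 (-0.023). With arrays scaled to the same median ESRP1 (-0.015), KHDRBS1 (-0.023) and SRSF7 (-0.022) did so. All other counts of regulators were within 1.5 times their value. The line is the block of the model, so the siRNA comparison is paired by line; without that term 0 regulators passed an unadjusted p of 0.05 in limma. Values near the limit, such as MBNL3 in Lu139, and probe sets that disagree limit the precision.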
